A study of Mus musculus with 6 samples.

Results

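Gene signal was examined for the proteasome subunits and activators, taken as every gene on the array whose symbol is Psma, Psmb, Psmc, Psmd or Psme followed by a number only. This rule found 42 of 18192 genes, of which 19 belong to the core (Psma and Psmb), 20 to the lid and base (Psmc and Psmd) and 3 to the activators (Psme1, Psme3 and Psme4). Another activator gene, Psme2, shares its probe set with Psme2b and so has no value of its own. Each gene was read on its probe set with the highest mean, and 40 of the 42 passed the filter on dim signal (a mean log2 value above 5.12). The 2 that did not were Psma8, a subunit of the testis, and Psmb11, the catalytic subunit of the thymus, with deposited intensities of at most 26.5 and 41.6.

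The samples were red cell precursors of mouse bone marrow, sorted as CD71+/Ter-119+ (positive for the transferrin receptor and for a surface marker of the red cell lineage), and each of 6 single-colour arrays read 1 sample. The 3 Rb-null samples had the genotype EpoR-GFPcre/+ with Rb fl/fl, and the 3 controls had EpoR-GFPcre/+ with Rb fl/+, so all 6 carry the Cre at the erythropoietin receptor locus and at least 1 floxed Rb allele. Deletion in this model is limited to cells that express that receptor, and the age of the mice and whether arrays of a group come from separate animals are not given in the sources used here. The p-values therefore measure the spread between these 6 arrays, which may be technical. The question behind the series is how Rb, the retinoblastoma protein, links the end of division with mitochondrial biogenesis as red cells form.

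The proteasome is the protease that degrades proteins tagged with ubiquitin. Its core is a barrel of alpha rings, which gate the entrance, and beta rings, some of whose subunits carry the cutting sites. A base of ATPases unfolds the substrate, a lid removes its ubiquitin, and other activators can cap the barrel in place of base and lid. Red cell precursors use this system to clear unpaired globin chains and to strip the cell of organelles and unneeded proteins before it becomes a reticulocyte.

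Values are quantile normalized log2(intensity + 16), a fold change is the Rb-null minus the control mean on that scale, and levels of different genes come from different probes and are not compared. The median deposited intensity was 23.3 to 31.2 per array. Both arrays numbered 3 had bright 18S ribosomal RNA control probe sets, at a mean intensity of 1231 for the control and 542 for the Rb-null array, while the other 4 arrays had 32.6 to 66.2. Arrays of the same number deviated together from their group means across genes (correlations of 0.64, 0.61 and 0.65), so differences within a number, called pairs here, are given as well. Of the 12 erythroid markers 9 had a probe set of their own and 8 passed the filter, among them Tfrc, which encodes CD71, with a mean of 12.84 in controls and 12.93 in Rb-null cells. The alpha globin gene Hba-a1 was below the filter on its own probe set.

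No proteasome gene changed past the test between Rb-null and control cells. Limma called 0 of the 40 at adjusted p under 0.05 (lowest adjusted p = 1.00), as it called 0 of all 13232 genes (0%). At an unadjusted limma p under 0.05 stood 0 of the 40 and 537 of all genes (4.06%). With the replicate number as a block, limma again called 0 of the 40 (lowest adjusted p = 0.213) and 0 of all genes (0%). At an unadjusted p under 0.05 with the block stood 6 lower and 1 higher of the 40, where all genes gave 9.14% lower and 7.77% higher. The lower ones were Psmb3, Psmb5, Psmb6, Psmd9, Psme1 and Psme4, and the higher one was Psmd11. A blocked fit with a variance trend and robust moderation called 473 of all genes (3.57%) and 0 of the 40 (lowest adjusted p = 0.0645, for the lid subunit Psmd11).

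The genes of the core lay slightly lower in Rb-null cells, while those of the lid and base lay about 0. The median log2 fold change was -0.24 over the 17 core genes past the filter, 0.02 over the 20 lid and base genes and -0.44 over the 3 activators, against -0.04 over all genes tested. The activator median leaves out the probe set shared by Psme2 and Psme2b, which went the other way, at 0.63. Of the core genes 15 of 17 were negative, of the lid and base genes 9 of 20 and of the activators 2 of 3, together 26 of 40, where 54.6% of all genes were negative. In each of the 3 pairs 18 of the 40 were lower and 5 higher, against 24.1% and 18.4% of all genes. The sizes were small, from -0.56 for Psmb6 to 0.52 for Psmd10, and 4 of 40 had an absolute log2 fold change over 0.5, against 15.5% of all genes. Single arrays moved the core median, which was -0.39 when Rb-null replicate 2 was left out, -0.13 when control replicate 2 was, -0.14 for Rb-null replicate 3 and -0.16 for Rb-null replicate 1. Control replicate 2 had the highest value of the 6 arrays for 21 of the 40 genes, and leaving it out turned the median of all 40 from -0.11 to 0.033. That median was -0.19 when control replicate 1 was left out and -0.20 when control replicate 3 was.

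**Figure D1:**
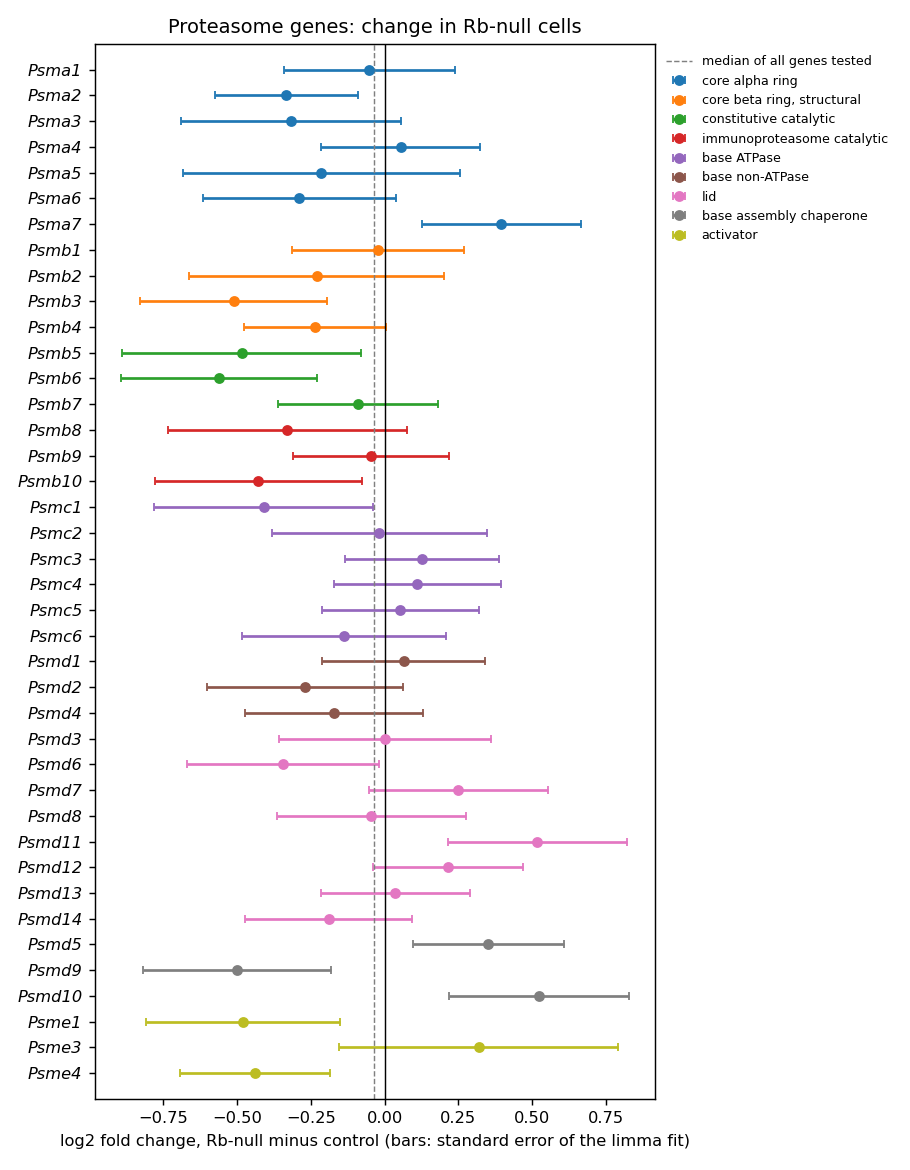
Log2 fold change (Rb-null minus control) on the horizontal axis for the 40 proteasome genes past the filter, coloured by role, with bars for the standard error of the limma fit and a dashed line for the median of all genes tested. Most Psma and Psmb genes lie left of 0, the Psmc and Psmd genes lie on both sides, and all values fall between -0.56 and 0.52.

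**Figure D2:**
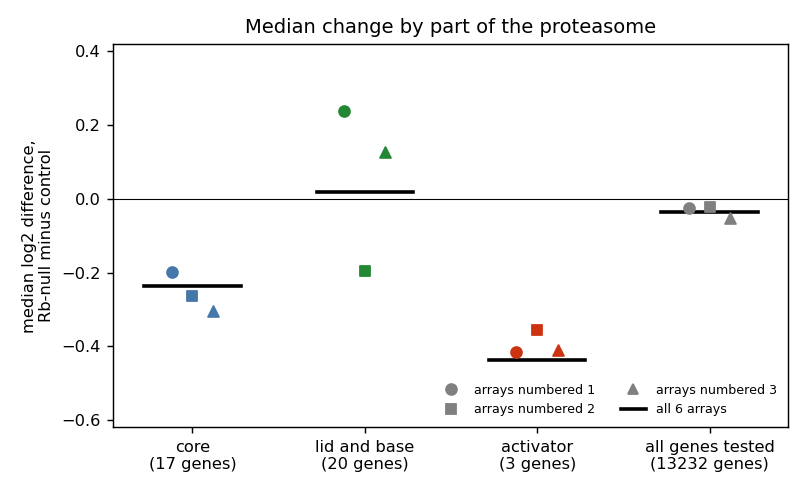
Median log2 difference (Rb-null minus control) over core, lid and base, activator and all tested genes, as points for the arrays numbered 1, 2 and 3 and a line for the value from all 6 arrays. The 3 core points are all below 0 (-0.20, -0.26 and -0.30), while the lid and base points fall on both sides of it (0.24, -0.19 and 0.13).

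Fold changes of granulocyte and macrophage markers were mostly negative, as those of the core genes were. Granulocyte markers were negative for 15 of 15 (median -0.49, summed normalized intensity 40144 to 53687 in controls and 28740 to 52618 in Rb-null samples) and macrophage markers for 11 of 12 (median -0.52, sums 3993 to 8321 and 2550 to 4961). Medians were -0.14 over 9 B cell markers (sums 551 to 1086 and 367 to 689), -0.08 over 5 T and NK cell markers (3 negative, Cd3d and Thy1 each at 0.43, sums 306 to 442 and 298 to 445) and -0.24 over 5 megakaryocyte markers (sums 373 to 801 and 329 to 507). The erythroid median was 0.06 over 8 genes (sums 41991 to 45728 and 44773 to 47657), and no summed level was at 0. The sums include markers below the filter, which the medians and counts leave out. In such sorted bulk samples fewer cells of a type and less RNA per cell cannot be told apart, and the part of these cells in the proteasome values was not tested. Limma called 0 genes in these 6 lists, with 3 at unadjusted p under 0.05, where all genes gave 4.06%. These were Cd163 of the 12 macrophage markers and Cd79b and Ms4a1 of the 9 B cell markers. The erythroid, granulocyte, T and NK cell and megakaryocyte lists gave 0 in this fit without the block. With the block, all genes gave 9.14% lower and 7.77% higher at unadjusted p under 0.05. Lower there were Elane, Prtn3, Ltf, Fcnb and Chil3 of the granulocyte markers and Cd163, Vcam1 and Lyz2 of the macrophage markers. So were Cd79a, Cd79b, Ms4a1 and Igll1 of the B cell markers and the megakaryocyte marker Vwf, while Klf1 and Thy1 were higher. Without both arrays numbered 3 the core median was -0.23, that of the lid and base -0.06, and 30 of the 40 genes were negative.

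The catalytic subunits Psmb5, Psmb6 and Psmb7 carry the chymotrypsin-like, caspase-like and trypsin-like sites of the standard proteasome. In the order of array numbers, used throughout, Psmb5 read 8.48, 9.32 and 9.39 in controls and 7.82, 8.93 and 8.99 in Rb-null cells. Each Rb-null array was lower than the control of its number, and the groups overlapped through control array 1. Control cells averaged 9.06 ± 0.51 (SD, n = 3) where Rb-null cells averaged 8.58 ± 0.66 (SD, n = 3), which gives -0.48 (SE 0.40) as the log2 fold change. SEs of single genes here and below come from the fit without the block, so they include the spread between array numbers. With the block the SE of Psmb5 was 0.15. Its fold change was -0.11 without Rb-null replicate 1, -0.78 without control replicate 1 and -0.32 without control replicate 3. Psmb6 read 8.12, 8.75 and 8.45 in controls and 7.90, 8.37 and 7.37 in Rb-null cells. Its fold change of -0.56 (SE 0.33) was the lowest of the 40, each pair was lower and the groups overlapped, with Rb-null array 3 lowest, and it was -0.31 without that array. Psmb7 read 9.81, 10.32 and 9.73 against 9.81, 9.95 and 9.83, a fold change of -0.09 (SE 0.27). Its values were level apart from a high control array 2, and without that array the fold change was 0.095.

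Interferon induces the immunoproteasome subunits Psmb8, Psmb9 and Psmb10, which take the places of Psmb5, Psmb6 and Psmb7. Psmb10 lay near the filter, while Psmb8 and Psmb9 also passed a filter at the 60th percentile. Psmb8 read 5.52, 5.56 and 6.81 in controls and 5.18, 5.76 and 5.95 in Rb-null cells, a fold change of -0.33 (SE 0.41). Control array 3 stood above the other 5 arrays, and without it the fold change was 0.094. Psmb8 was dim too, with deposited intensities of 21.9 to 82.7, and its fold change was -0.43 at an offset of 1 and -0.20 at 64. Psmb9 read 6.71, 6.85 and 6.33 against 6.44, 6.61 and 6.70, with -0.05 (SE 0.26), and its groups overlapped. It turned to 0.028 without Rb-null replicate 1 and to 0.063 without control replicate 2. Psmb10 read 5.27, 5.89 and 5.58 against 4.83, 5.82 and 4.81, with -0.43 (SE 0.35), each pair lower and 2 Rb-null arrays below the filter value. So near the filter Psmb10 depended on the offset, with -0.75 at an offset of 1 and -0.18 at 64, and single arrays moved it between -0.76 and -0.26.

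Whether an immunoproteasome subunit moved differently from the subunit it replaces was tested on the difference of both log2 values within each array. The difference of fold changes was 0.15 (SE 0.38) for Psmb8 against Psmb5, 0.52 (SE 0.39) for Psmb9 against Psmb6 and -0.34 (SE 0.31) for Psmb10 against Psmb7. Exact 2-sided permutation tests of 3 against 3 arrays gave p = 0.9, 0.3 and 0.4, and 0.9, 0.6 and 0.6 after adjustment over the 3 comparisons. These tests and SEs do not use the pairs. A test that flipped the signs of the changes within numbers gave unadjusted p = 0.75, 0.5 and 0.5. The smallest p the unpaired test allows is 0.1, and the paired one allows none as small. So these values show neither a shift between both forms nor its absence. Within numbers 1, 2 and 3 the difference changed by 0.33, 0.60 and -0.46 for Psmb8 against Psmb5, and it turned to -0.17 without control replicate 2. For Psmb9 against Psmb6 the changes were -0.056, 0.15 and 1.46, so the value rests on the arrays numbered 3, those with bright 18S signal. It was 0.20 without Rb-null replicate 3 and 0.045 without both arrays numbered 3. For Psmb10 against Psmb7 they were -0.44, 0.30 and -0.87, with -0.66 at an offset of 1, -0.098 at 64, -0.19 without Rb-null replicate 3 and -0.082 without both arrays numbered 3. Among 18 interferon and antigen presentation genes past the filter the median fold change was -0.01, 10 were negative, and limma called 0, with 1 at unadjusted p under 0.05. That gene was Irf9, a transcription factor of the interferon response, at 0.74 (SE 0.30). With the replicate block Irf9 and Tapbp were higher and Ifit1 and Ifit2 lower at unadjusted p under 0.05. All genes gave 4.06% without the block, and 7.77% higher and 9.14% lower with it. Oasl2, Ifit1 and Ifit2, all interferon-induced, had -0.55 (SE 0.29), -0.51 (SE 0.28) and -0.50 (SE 0.32).

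**Figure D3:**
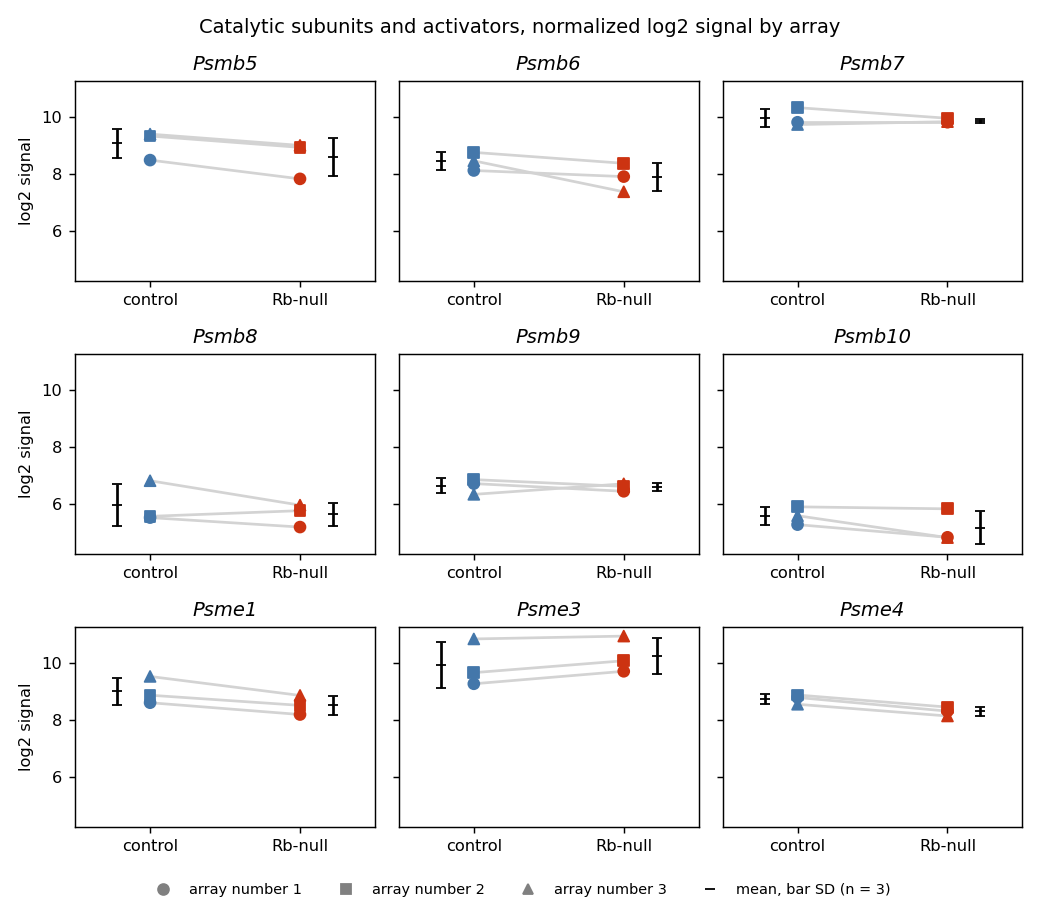
Normalized log2 signal (vertical axis) of 9 genes on each of the 6 arrays, controls blue and Rb-null red, with lines joining arrays of the same number and bars for mean and SD (n = 3). Psmb5, Psmb6, Psmb10, Psme1 and Psme4 slope down in each pair, and only Psme4 of these 9 has groups that do not overlap.

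Promoter sequence was set beside these values because the choice of genes did not use it. RefSeq promoter windows (GRCm38.p6) matched 35 of the 42 genes, and the 250 bases before the start were searched on both strands for TGACNNNGC, the antioxidant response element core bound by Nfe2l1 and Nfe2l2 with small Maf partners, for CCAAT, bound by NF-Y, and for GGGCGG, bound by Sp factors. TGACNNNGC was found in 13.5% of the 37 windows of these genes and 10.2% of all 32851 windows, CCAAT in 37.8% and 33.8%, and GGGCGG in 54.1% and 32.7%. The 5 genes with TGACNNNGC were Psmb5, Psmb6, Psmc6, Psmd9 and Psmd12. Their median fold change was -0.48 with 4 of 5 negative, against -0.17 with 19 of 29 negative for tested genes whose windows lack it. Of these 5, Psmd12 had 0.22 and Psmc6 -0.14, each with pairs of both signs. With GGGCGG the median was -0.05 (12 of 20 negative) and without it -0.26 (11 of 14), and with CCAAT it was -0.17 (10 of 13) and without it -0.21 (13 of 21). Below are 5 promoters picked by direction, of 3 genes with TGACNNNGC that were lower in each pair and of Psmd11 and Psma7, higher in each pair, which lack it, so that this choice shows no link between motif and direction. Capitals mark every match to one of the 3 motifs, and in Psmd9 a TGACNNNGC and a GGGCGG match overlap.
Psmb5, chr14:54617996-54618245, reverse strand: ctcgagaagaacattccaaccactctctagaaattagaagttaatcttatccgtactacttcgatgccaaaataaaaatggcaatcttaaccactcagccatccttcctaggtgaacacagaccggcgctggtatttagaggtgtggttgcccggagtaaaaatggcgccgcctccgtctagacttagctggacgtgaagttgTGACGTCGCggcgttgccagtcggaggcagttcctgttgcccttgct
Psmb6, chr11:70525107-70525356, forward strand: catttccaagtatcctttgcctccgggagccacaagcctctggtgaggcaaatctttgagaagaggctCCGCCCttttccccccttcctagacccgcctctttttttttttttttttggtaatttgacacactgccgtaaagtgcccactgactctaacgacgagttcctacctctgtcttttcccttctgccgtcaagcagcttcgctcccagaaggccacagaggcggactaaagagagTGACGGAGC
Psmd9, chr5:123227940-123228189, forward strand: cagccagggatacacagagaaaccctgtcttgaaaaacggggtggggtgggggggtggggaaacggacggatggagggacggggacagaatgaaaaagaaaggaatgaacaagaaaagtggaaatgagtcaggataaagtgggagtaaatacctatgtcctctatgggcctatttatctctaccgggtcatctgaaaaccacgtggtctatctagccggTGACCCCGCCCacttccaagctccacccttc
Psmd11, chr11:80428365-80428614, forward strand: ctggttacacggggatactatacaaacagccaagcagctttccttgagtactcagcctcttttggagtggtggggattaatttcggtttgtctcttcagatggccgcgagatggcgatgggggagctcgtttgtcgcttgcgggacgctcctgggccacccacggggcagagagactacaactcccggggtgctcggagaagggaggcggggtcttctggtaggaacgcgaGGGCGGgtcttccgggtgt
Psma7, chr2:180042465-180042714, reverse strand: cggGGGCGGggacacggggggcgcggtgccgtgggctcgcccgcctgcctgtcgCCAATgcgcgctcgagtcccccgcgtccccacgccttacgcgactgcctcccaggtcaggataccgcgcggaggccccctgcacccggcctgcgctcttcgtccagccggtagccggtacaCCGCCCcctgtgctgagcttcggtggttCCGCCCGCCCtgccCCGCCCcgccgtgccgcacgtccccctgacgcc
In Psmb5 the TGACNNNGC match begins 47 bases before the start, in Psmd9 31 and in Psmb6 9. Psma7 holds 5 GGGCGG matches and 1 CCAAT, and Psmd11 1 GGGCGG. A match describes these letters only, and binding was not measured.

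Among the other beta subunits, Psmb1, Psmb2, Psmb3 and Psmb4, which build the ring without a cutting site, 4 of 4 were negative (median -0.23) and 3 were lower in each pair. Psmb3 read 8.33, 9.01 and 9.26 in controls and 8.12, 8.56 and 8.39 in Rb-null cells, with -0.51 (SE 0.32). The groups overlapped only through control array 1, and the value was -0.79 without that array and -0.31 without control replicate 3. Its other probe set past the filter gave -0.49, with groups that did not overlap. Psmb4 read 10.02, 10.04 and 9.86 against 9.73, 9.78 and 9.71, with -0.24 (SE 0.24), and its groups did not overlap. Another Psmb4 probe set past the filter gave -0.34, with groups that overlapped. Psmb1 and Psmb2 had -0.02 (SE 0.29) and -0.23 (SE 0.43).

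The alpha ring, whose subunits close the entrance of the barrel, had a median of -0.21 over 7 genes, 5 of them negative. Psma2 read 9.87, 9.85 and 9.93 in controls and 9.68, 9.53 and 9.45 in Rb-null cells, with -0.33 (SE 0.24) and groups that did not overlap. Psma7 went the other way, with 8.20, 8.43 and 7.85 against 8.73, 8.49 and 8.44, a fold change of 0.40 (SE 0.27) and groups that did not overlap, and 0.24 without control replicate 3. A second Psma7 probe set gave 0.23, with pair 2 at 0. Psma3, Psma5 and Psma6 were lower in each pair, at -0.32, -0.21 and -0.29, though other probe sets of Psma5 and Psma6 gave -0.01, -0.03 and -0.11. Psma1 and Psma4 had -0.05 and 0.05. Of the 40 genes 3 had groups that did not overlap on the lower side, Psma2, Psmb4 and Psme4, where all genes gave 4.78%, and 2 on the higher side, Psma7 and Psmd5, where all genes gave 5.13%.

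The base ATPases Psmc1 to Psmc6, the ring that unfolds substrates, had a median of 0.02, with 3 of 6 negative. Psmc1 was the exception in size, with 7.99, 8.86 and 7.92 in controls and 7.87, 8.33 and 7.34 in Rb-null cells, a fold change of -0.41 (SE 0.37) and each pair lower, though it was -0.11 without control replicate 2 and -0.16 without Rb-null replicate 3. Psmc3 read 9.29, 9.74 and 9.25 against 9.58, 9.56 and 9.52, with 0.13 (SE 0.26) and overlapping groups. The other 4 ATPases lay between -0.14 and 0.11. A second Psmc6 probe set, picked out after its values were seen, gave -0.85, lower in each pair, against -0.14 on the brighter one. Of the non-ATPase base subunits, Psmd2 read 8.69, 9.62 and 9.14 in controls and 8.47, 9.18 and 8.99 in Rb-null cells, with -0.27 (SE 0.33), and -0.034 when control replicate 2 was left out or -0.063 when Rb-null replicate 1 was. The scaffold Psmd1 had 0.06 (SE 0.27). Psmd4, a ubiquitin receptor, read 10.03, 9.66 and 10.47 against 9.92, 9.61 and 10.11, with -0.17 (SE 0.30). Its other probe sets gave -0.38 and 0.25, and without control replicate 3 it had 0.038.

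Of the lid genes that the symbol rule found, 3 of 8 were negative (median 0.02). This leaves out the lid subunit Sem1, which is given below at -0.64. Psmd11, a scaffold subunit of the lid, read 10.80, 10.53 and 10.04 in controls and 11.29, 10.84 and 10.78 in Rb-null cells. The Rb-null array was higher in each pair, the groups overlapped narrowly through control array 1 and Rb-null array 3, and the fold change was 0.52 (SE 0.30), with limma adjusted p = 0.222 under the block. Of its 6 other probe sets past the filter the brightest gave -0.05 and the next 0.65, and the rest ran from -0.31 to 0.28, so the Psmd11 probe sets disagree. The mean of its probe sets gave 0.17, and leaving out control replicate 3 gave 0.30. Psmd7, the inactive partner of the lid's deubiquitinase, was higher in each pair too, at 0.25 (SE 0.30). Psmd14, that deubiquitinase, had -0.19 (SE 0.28) with pair differences of -0.19, -0.18 and -0.20. Psmd6 read 9.20, 9.64 and 8.88 against 8.96, 9.29 and 8.44, with -0.34 (SE 0.33), and its second probe set gave -0.40. It was -0.11 without Rb-null replicate 3 and -0.15 without control replicate 2. Psmd3, Psmd8, Psmd12 and Psmd13 lay between -0.05 and 0.22, each with pairs of both signs.

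The 3 chaperones that help assemble the base did not move together. Psmd10, also known as gankyrin, which binds both Rb and Mdm2, read 7.32, 7.74 and 7.50 in controls and 7.93, 7.68 and 8.53 in Rb-null cells. Arrays 1 and 3 were higher in Rb-null and array 2 was not, so the fold change of 0.52 (SE 0.31), the highest of the 40, rests on 2 pairs of 3, and it was 0.28 without Rb-null replicate 3. Psmd5 read 9.31, 9.56 and 9.71 against 9.77, 9.83 and 10.03, with 0.35 (SE 0.26), higher in each pair. Its values were singled out after they were seen. Psmd9 read 7.98, 8.59 and 8.48 against 7.35, 8.09 and 8.11, with -0.50 (SE 0.32), lower in each pair with overlapping groups. Its other probe sets gave -0.35 and -0.10, and without Rb-null replicate 1 it had -0.25.

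**Figure D4:**
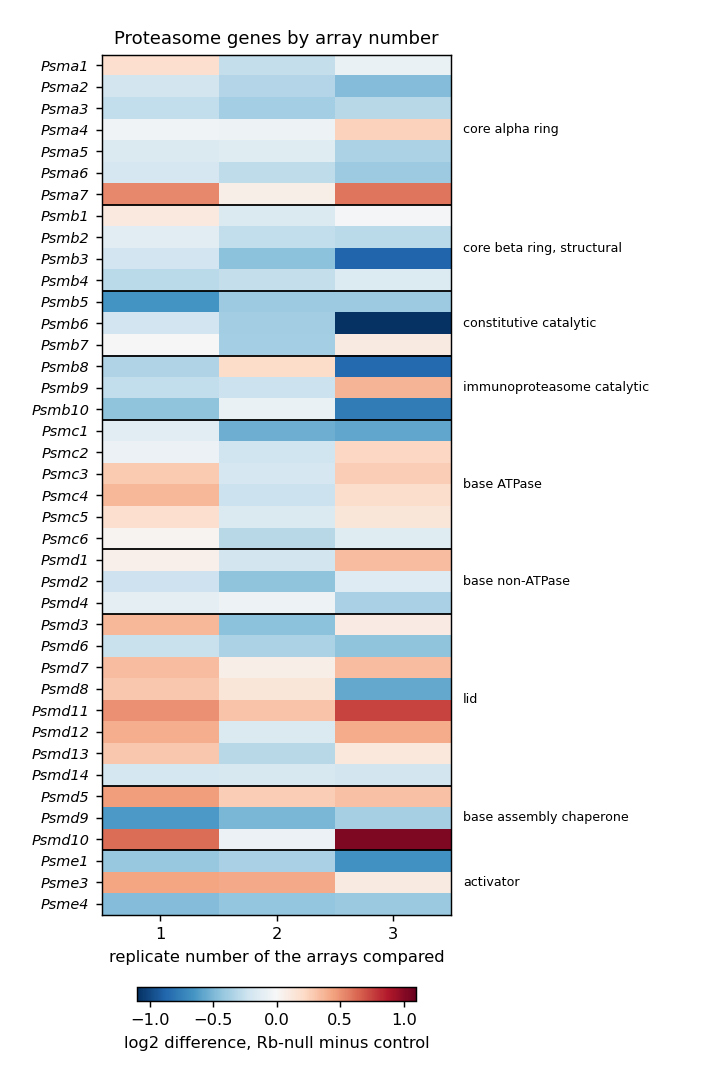
Log2 difference (Rb-null minus control) within each array number, in columns, for the 40 genes in rows grouped by role, blue where Rb-null is lower and red where it is higher. The core rows are mostly blue in all 3 columns, while many base and lid rows are red for numbers 1 and 3 and blue for number 2.

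Of the activators, Psme1 is a subunit of the interferon-induced cap, Psme3 forms the nuclear cap, and Psme4 is a large nuclear cap linked to histone degradation. Psme1 read 8.60, 8.86 and 9.52 in controls and 8.18, 8.51 and 8.85 in Rb-null cells, with -0.48 (SE 0.33), lower in each pair with overlapping groups, and -0.21 when control replicate 3 was left out or -0.31 when Rb-null replicate 1 was. The probe set shared by Psme2 and Psme2b went the opposite way, at 0.63 and higher in each pair, and was not tested. Psme4 read 8.78, 8.87 and 8.54 against 8.30, 8.44 and 8.13. Every Rb-null array was below every control, and the fold change was -0.44 (SE 0.25, limma adjusted p = 1.00). The other 2 probe sets past the filter gave -0.44 and -0.55, with groups that overlapped on both. With 1 array left out the probe set used here gave -0.53 to -0.36. Without an array numbered 2, however, another Psme4 probe set was the brightest, which gave -0.74 without the control and -0.20 without the Rb-null array. Psme3 read 9.26, 9.65 and 10.83 against 9.70, 10.07 and 10.93, with 0.32 (SE 0.47). Both arrays numbered 3 were high, its other probe sets gave -0.22 and 0.04, and the value turned to -0.0095 without control replicate 1 and to -0.030 without Rb-null replicate 3. In all, 18 of the 40 genes had several probe sets past the filter and 8 of these (44.4%) had probe sets of opposite sign, against 46.2% of all such genes.

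Genes that act around the proteasome were read from lists of their own. Of 15 assembly factors and regulators past the filter 6 were negative (median 0.08), and limma called 0, with 0 at unadjusted p under 0.05. The lower ones included Pomp, the chaperone of the half-built core, at -0.75 (SE 0.39), the lid subunit Sem1 at -0.64 (SE 0.34) and the inhibitor Psmf1 at -0.63 (SE 0.36), each lower in each pair, and the ligase Ube3c had 0.41 (SE 0.31). Of 9 genes of ubiquitin supply and delivery 3 were negative (median 0.18, 0 called, 0 at unadjusted p under 0.05). Rad23b, a shuttle for tagged proteins, had 0.62 (SE 0.28), Ubqln1, another shuttle, -0.46 (SE 0.33), Nploc4 0.37 (SE 0.28) and the activating enzyme Uba6 0.34 (SE 0.35). Of 9 ubiquitin enzymes of red cell precursors 6 were negative (median -0.24, 0 called, 1 at unadjusted p under 0.05). Ube2h, a conjugating enzyme, had -1.23 (SE 0.40), Ube2o, which tags ribosomal proteins and unpaired globin, -0.71 (SE 0.65), Trim10 -0.24 (SE 0.31) and the ligase Siah1a 0.53 (SE 0.32). These counts come from the fit without the block, where 54.6% of all genes were negative and 4.06% had an unadjusted p under 0.05. With the block, Pomp, Sem1, Psmf1, Ubqln1, Ube2h and Ube2o were lower at unadjusted p under 0.05, and Rad23b and Siah1a higher. All genes gave 9.14% lower and 7.77% higher there.

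Transcription factors that act on proteasome genes, with their regulators, had mostly positive fold changes. Of 9 such genes past the filter 7 were positive and 6 higher in each pair (median 0.50). Of all genes 54.6% were negative and 18.4% higher in each pair. Both counts include the regulator Keap1, at 0.16 (SE 0.43). Without the block 3 had an unadjusted limma p under 0.05, where all genes gave 4.06%, though limma called 0. With it Nfyb, Nfe2l2, Mafg, Nfya and Nfyc were higher and Ngly1 lower at that level. All genes gave 7.77% higher and 9.14% lower there. Nfyb, a subunit of NF-Y, read 9.81, 9.54 and 9.30 in controls and 10.92, 10.60 and 10.54 in Rb-null cells, a fold change of 1.14 (SE 0.27, limma adjusted p = 0.478, and 0.0853 with the block). Nfe2l2 had 0.95 (SE 0.33), the small Maf partner Mafg 0.91 (SE 0.28) and Nfya 0.76 (SE 0.37). Nfe2l1, the factor that raises proteasome genes when proteasome activity falls short, had 0.50 (SE 0.48), with pair differences of 0.85, -0.42 and 1.07. Both negative genes were lower in each pair, with -0.59 (SE 0.32) for Ngly1, the enzyme that activates Nfe2l1, and -0.21 (SE 0.37) for the small Maf gene Mafk.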

How the data were processed

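Trizol and QIAGEN column purification and a biotin label are recorded per the labels' protocols. The authors deposited linear intensities, 1 per probe set and array. Which method made them from the scans: not given in the sources used here. Sample titles gave group and replicate number. Of 45101 probe sets, 64 controls, 4 empty ones and 1 with a value above the range of a scanner were left out. Values were transformed as log2(value + 16) and quantile normalized, since array medians differed by 0.264. Probe sets above the 40th percentile of the mean (log2 5.12) with 1 gene symbol were kept, the one with the highest mean per gene, which gave 13232 tested genes.

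Rb-null was compared with control in limma 3.58.1 (R 4.3.3), with 2-sided moderated tests and p-values adjusted over all tested genes (Benjamini-Hochberg, threshold 0.05). Replicate numbers are shared by the groups, and arrays of a number correlated (0.64, 0.61 and 0.65 across genes, where the highest value between different numbers was 0.0370), so a fit with the number as a block was also run. The labels do not say what the numbers stand for. The code was tested on simulated data.

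Probe sets were named through GEO's platform annotation. Of all probe sets kept, 34941 had 1 symbol, 932 several and 9159 none. The members, the lists and the alternatives were chosen with earlier results of these data known. Values by array are given for the 6 catalytic subunits, the activators and the 2 members of each role with the smallest p, and for each other list up to 4 genes with the smallest p. Psmd5, Nfe2l1, Ngly1, Mafk, Cd3d and Thy1 were added after their values were seen. Lists covered assembly and regulators, control of proteasome genes, ubiquitin supply and delivery, ubiquitin enzymes of red cell precursors, interferon and antigen presentation, and markers of 6 cell types. Genes of a list with no probe set of their own were left out. Precision is limited by the 6 arrays.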

Additional observations from a re-analysis of the deposited data

Results flagged for a closer look

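Signal outside the values used above was higher on every Rb-null array than on every control array for 3 probe sets. On the lower side the second Psmb3 probe set had groups that did not overlap, at -0.49. Of all genes tested, each on its probe set with the highest mean, 5.13% were higher and 4.78% lower without overlap. These are shares of genes and not of the other probe sets, so they do not show whether 3 is many. A dim second Psma1 probe set had a log2 difference of 0.84, against -0.05 on the bright Psma1 probe set. The third brightest Psmd11 probe set had 0.65. The probe set shared by Psme2 and Psme2b, which cannot be given to either gene, had 0.63, with values of 8.12, 8.56 and 8.61 in controls, then 8.95, 8.72 and 9.52 in Rb-null cells. These differences were not tested.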

How the results depend on the processing

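Limma called 0 of the proteasome genes under each of 17 alternatives. Over all genes it called 2 with an offset of 64, 3 with array weights and 473 with the replicate block, a variance trend and robust moderation, and 0 under the other 14. With the replicate block alone 0 genes were called and the fold changes were the same. The cause of these differences was not tested. Leaving out 1 array at a time moved the median of all members between -0.20 and 0.033, of the core between -0.39 and -0.13, of the lid and base between -0.05 and 0.15, and of the activators, only 3 genes, between -0.54 and -0.20. Both ends of the last range include a change of Psme4 probe set. With each gene kept on its probe set of all 6 arrays, added after seeing the data, the activator median ran from -0.47 to -0.21, 0 genes were called and the ranges of the members and the core were the same to 2 decimals. The activator median was -0.39 with an offset of 64, -0.40 with the deposited scaling and with a common median, -0.48 with the mean of probe sets and -0.39 without both arrays numbered 3. Without 1 array the direction turned for Psmb8 against Psmb5 (-0.17 to 0.41), Psmb7 (-0.20 to 0.095), Psmb8 (-0.55 to 0.094), Psmb9 (-0.20 to 0.063), Psmd4 (-0.37 to 0.038) and Psme3 (-0.030 to 0.77), and for no other named member. The number of negative members, counted after seeing the data, ran from 19 to 31 of those past the filter. Psmb10 was below the filter at the 60th percentile and had no value there, and the array weights and variance trend do not apply to the differences within arrays. Over the scalings the median of all genes stayed within 0.1 of its main value of -0.04. A missed threshold does not show that levels were equal.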
